A study of Mus musculus with 6 samples.

Results

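The sodium, calcium and HCN channel subunits are among the genes that set how a motor neuron fires. They were taken from the deposited count table by gene name, as the voltage-gated sodium channel alpha (Nav; *Scn1a* to *Scn11a*) and beta genes, the calcium channel alpha1 (Cav; *Cacna1*), beta (*Cacnb*) and alpha2delta (*Cacna2d*) genes, the HCN genes and the leak channel gene *Nalcn*. The rule found 37 genes among the 53858 genes of the table, 25 for pore-forming subunits and 12 for auxiliary subunits. The libraries were made from spinal motor neurons of WT mice whose sciatic nerve had been crushed, picked on day 6. In the double-labelled pools (DiO+/DiI+, n = 3) the neurons carried DiO, given at a proximal site of the nerve on day 0, and DiI, given at a distal site on day 2 to mark neurons whose axons had regrown that far. The DiO-only pools (DiO+/DiI-, n = 3) carried the first dye without the second. Both groups therefore shared the crush, and no uninjured neurons are part of the comparison. Each pool held 10 to 15 picked cells per the labels. Library batches are mentioned in the labels, but neither the batch nor the animals of a given pool are named. The p-values given here therefore reflect the variation among these 6 pools, part of which may be technical. A pool mixes cells, and fewer cells of a type and less RNA per cell cannot be told apart.

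Sodium channels open on depolarisation and carry the upstroke of the action potential, which starts at the axon initial segment and is renewed at the nodes of Ranvier. Calcium channels turn the action potential into calcium entry, which releases transmitter at the neuromuscular junction and supports the sustained firing of motor neurons. HCN channels open on hyperpolarisation and pull the membrane back towards threshold, and NALCN carries a steady sodium leak that holds the resting potential near it. Beta and alpha2delta subunits do not form pores but move the channels to the membrane and shape their gating.

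Total counts ran from 2997714 to 6563403 per library, and the 37 genes took 0.195 to 0.336% of them. Detected genes numbered 15657 to 16467 in double-labelled pools and 17229 to 22118 in DiO-only pools. All 7 motor neuron markers, *Chat*, *Isl1* and *Prph* among them, passed the filter on low counts and had counts in each pool. In double-labelled pools 4 were higher and 3 lower. Their summed level was 2881 to 4121 CPM in double-labelled pools and 2649 to 4528 CPM in DiO-only pools, with overlap. The summed level of 12 oligodendrocyte markers was 1455 to 4932 CPM in double-labelled pools and 288 to 584 CPM in DiO-only pools, without overlap, and that of 11 astrocyte markers was 1068 to 2334 CPM in double-labelled pools and 869 to 1284 CPM in DiO-only pools, with overlap. *Aldoc* and *S100b*, whose groups overlapped, made up most of the astrocyte sum. The median log2 fold change of the 10 astrocyte markers tested was 2.49. In double-labelled pools 8 were higher, 6 with p under 0.05 before adjustment, and *Aqp4*, *Slc1a2*, *Gja1*, *Atp1b2* and *Fgfr3* did not overlap. Mitochondrial genes took 4.03 to 18% of counts in double-labelled pools, highest in pool 2, and 3.96 to 10.8% in DiO-only pools. CPM are read counts relative to library size, with libraries scaled by TMM factors. Each of the 12 oligodendrocyte markers had counts in at least 1 pool. All 10 that were tested were higher in double-labelled pools, 8 with p under 0.05 before adjustment in edgeR and 0 after it. Their median log2 fold change was 2.23. Of 5 precursor markers *Gpr17* was at 0 in each pool, *Cspg4* had 1 count and *Pdgfra* had 14 over the 6 pools. *Olig2* had 65 counts and was not tested. *Olig1*, the only precursor marker tested, stood at 21.2, 12.1 and 13.4 CPM in double-labelled pools 1 to 3. In DiO-only pools 1 to 3 it stood at 3.79, 0.334 and 1.89 CPM, without overlap. Its log2 fold change was 2.89 ± 0.87 (SE, with an adjusted p of 0.617 in edgeR). The summed level of 9 interneuron markers was 11.4 to 25.2 CPM in double-labelled pools and 71.6 to 125 CPM in DiO-only pools. Most of each DiO-only sum came from 1 gene, *Slc17a6* (62.6 CPM) in pool 1, *Sst* (105 CPM) in pool 2 and *Slc6a5* (92.5 CPM) in pool 3, and both interneuron markers tested had overlapping groups. The part of these other cells, of the mitochondrial share and of the number of detected genes in the differences given here was not tested.

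Part of the family was near or under the limit of detection. Under 10 counts over the 6 pools, and so reported as not expressed at this depth, were 4 genes, among them *Scn4a* of skeletal muscle (3 counts), *Scn10a* of pain-sensing neurons (7) and *Cacna1f* of photoreceptors (1). A further 5 genes were too low for the test, namely *Scn11a* (10 counts), *Scn3b* (12), *Scn7a* (17), *Cacna1s* (20) and *Cacna1i* (28). The other 28 genes, 17 for pore-forming and 11 for auxiliary subunits, passed the filter on low counts and were tested.

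**Figure D1:**
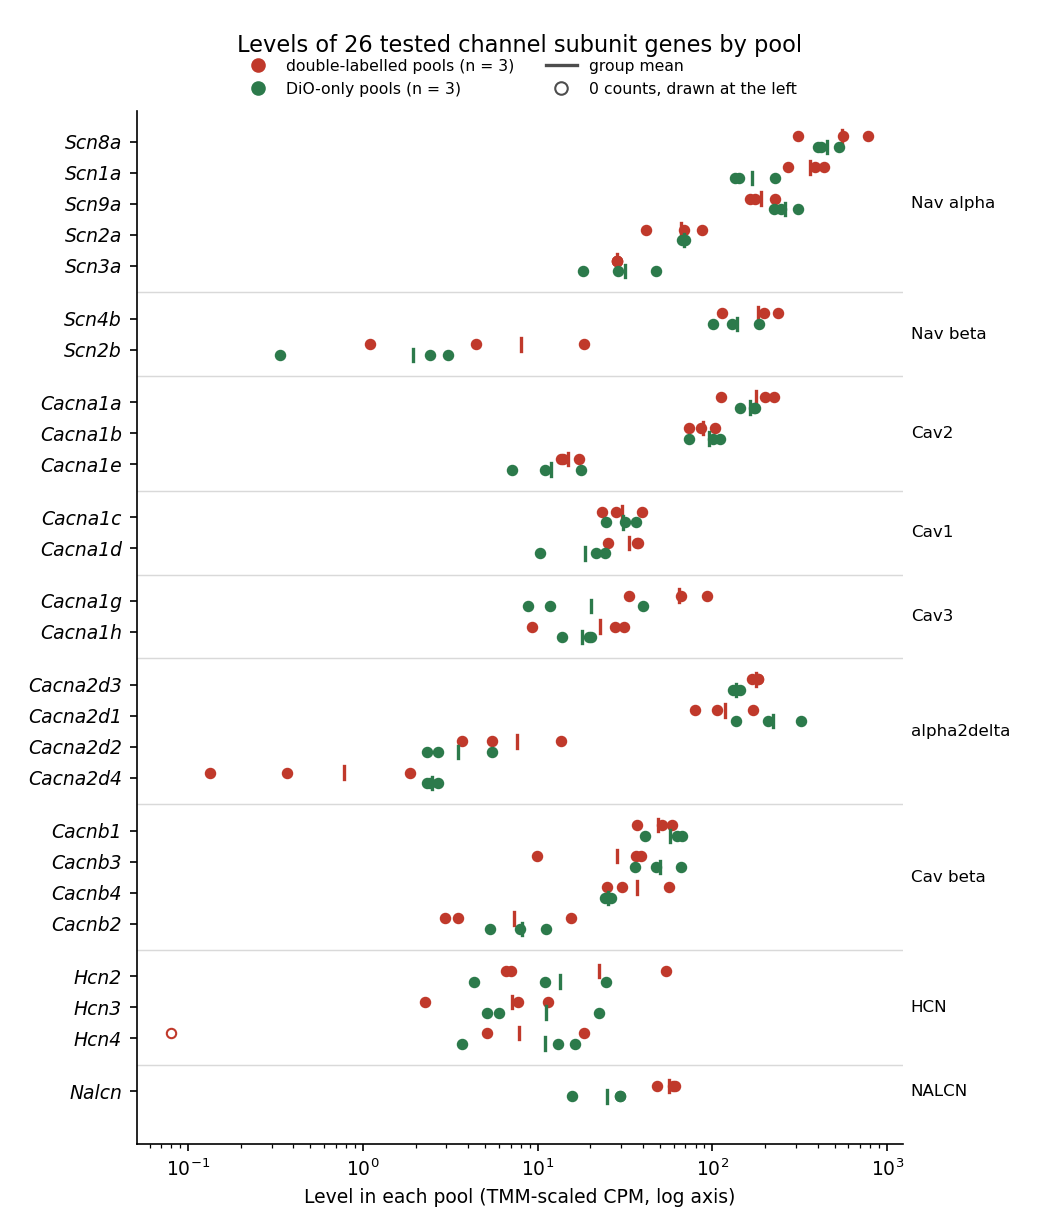
Level of 26 of the 28 tested genes in each pool, in TMM-scaled CPM on a log axis, with double-labelled pools in red above DiO-only pools in green and a bar at each group mean. Scn1a and Nalcn show groups that do not overlap, whereas most genes, such as Scn2a and Cacna1c, show overlapping groups.

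Of the 28 tested genes 0 passed when double-labelled pools were compared with DiO-only pools in edgeR's quasi-likelihood test (Benjamini-Hochberg adjusted p from 0.617 to 0.999), where 0% of the 12954 genes tested passed. DESeq2 and limma voom also called 0 of them, while over all genes DESeq2 called 75 and limma voom 0. At an unadjusted p under 0.05 there were 4 of 28 members (14.3%), against 5.81% of all genes tested. The 3 higher ones were *Scn1a*, *Nalcn* and *Cacna1g*, against 3.18% of all genes, and the lower one was *Cacna2d1*, against 2.63%. The number at that limit was 2 without DiO-only pool 2, 1 without DiO-only pool 3 and 2 without double-labelled pool 2. The groups did not overlap for 5 of 28 members (17.9%), against 12.9% of all genes. Higher among these were *Scn1a*, *Nalcn*, *Cacna1d* and *Cacna2d3*, against 5.86% of all genes, and lower was *Cacna2d4*, against 7.07%. *Cacna2d4*, with 49 counts in all, passed the filter on low counts only through the DiO-only pools, where it was higher. Its lack of overlap is therefore not a separate result. In all, 15 members were above and 13 below their DiO-only level, with a median log2 fold change of 0.13, and 51.3% of all genes were above it, with a median of 0.02. Among pore-forming subunits 10 of 17 were above, with a median of 0.13, and among auxiliary subunits 5 of 11, with a median of -0.12.

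**Figure D2:**
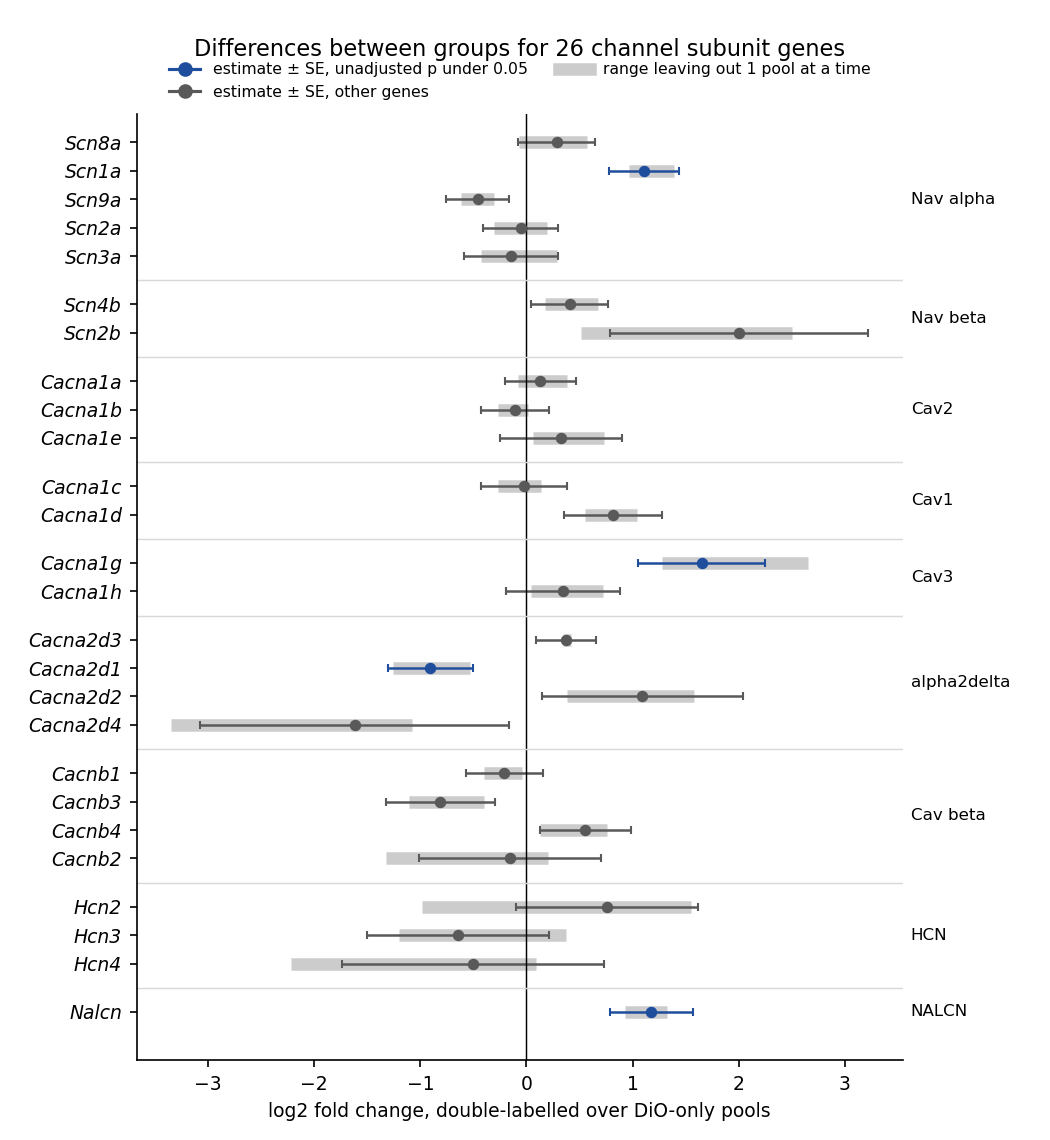
Log2 fold change of 26 of the 28 tested genes, double-labelled over DiO-only pools, with its standard error (points and bars; blue where the unadjusted p is under 0.05) and the range when 1 pool at a time is left out (grey bands). The estimate of Scn1a stays between 0.96 and 1.39 across these runs, while that of Hcn2 runs from -0.98 to 1.55.

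Among the sodium channel pores, *Scn1a* (Nav1.1; ENSMUSG00000064329, mm10 chromosome 2, 66270778 to 66440840, minus strand) had the smallest p of the family. Nav1.1 is found in the initial segments and cell bodies of fast-firing neurons, motor neurons among them. Its level was 434, 385 and 272 CPM in double-labelled pools 1, 2 and 3, against 229, 142 and 135 CPM in DiO-only pools 1, 2 and 3. Every double-labelled pool lay above every DiO-only pool, and DiO-only pool 1 came nearest. The means were 363 ± 83.3 CPM in double-labelled pools and 169 ± 52.2 CPM in DiO-only pools (SD, n = 3 each), a log2 fold change of 1.11 ± 0.33 (SE, with an adjusted p of 0.617 in edgeR). The unadjusted p was 0.00664, and it stayed under 0.05 in all 6 runs that left out 1 pool. The smallest adjusted p for *Scn1a* under any alternative was 0.135, with the replicate numbers as a block, and the largest was 0.9998.

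The region around the start of *Scn1a* is shown because this gene stood furthest apart among the sodium channels. The window runs from 250 bases before to 50 after the RefSeq start (GRCm38.p6, chr2:66440788-66441087, minus strand) and is written 5′ to 3′ with motif matches in capitals.
Scn1a: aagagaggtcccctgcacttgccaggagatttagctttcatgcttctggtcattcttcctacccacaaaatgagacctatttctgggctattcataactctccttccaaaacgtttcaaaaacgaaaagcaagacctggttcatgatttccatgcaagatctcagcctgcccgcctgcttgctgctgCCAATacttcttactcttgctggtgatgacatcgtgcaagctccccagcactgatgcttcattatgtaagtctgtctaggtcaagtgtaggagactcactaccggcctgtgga
The letters searched on both strands were CCAAT (the CCAAT box), GGGCGG (the GC box), TGANTCA (the AP-1 site) and TGACGTCA (the cyclic AMP response element). The *Scn1a* window held 1 CCAAT match, as did 37.4% of the 32851 RefSeq windows at least once, and no match to the other letters, which 35.7, 7.81 and 1.79% of windows hold. Its GC content was 47.3%, against a median of 52.7% over all windows. RefSeq windows were matched for 27 of the 37 genes, and of these 8 had a CCAAT match, 15 a GC box match and 0 a match to TGANTCA or TGACGTCA. Some of these genes had more than 1 window, so counts by gene cannot be set against shares of windows. By window, 8 of 37 held a CCAAT match and 16 of 37 a GC box match.

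*Scn8a* (Nav1.6), the main channel of mature initial segments and nodes, had the highest level of the sodium channel pores. Per kilobase of merged exons its level averaged 34.8 ± 14.9 CPM per kb in double-labelled pools and 28.5 ± 4.34 in DiO-only pools (SD, n = 3). Its level was 309, 778 and 556 CPM in double-labelled pools 1 to 3, against 418, 528 and 403 CPM in DiO-only pools 1 to 3. Double-labelled pool 1 lay below and the other two above the DiO-only pools, so that the groups overlapped (log2 fold change 0.28 ± 0.36, SE, with an adjusted p of 0.978 in edgeR). Without double-labelled pool 2 the log2 fold change was -0.07.

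*Scn9a* (Nav1.7), known best from peripheral sensory and sympathetic neurons, averaged 14.8 CPM per kb in double-labelled pools and 20.4 CPM per kb in DiO-only pools. It was thus below *Scn1a* (32.6 CPM per kb) in double-labelled pools and above *Scn1a* (15.1 CPM per kb) in DiO-only pools. Its level was 176, 164 and 228 CPM in double-labelled pools 1 to 3, against 224, 309 and 248 CPM in DiO-only pools 1 to 3. The highest double-labelled pool, pool 3, lay just above the lowest DiO-only pool, pool 1. The log2 fold change was -0.46 ± 0.30 (SE, with an adjusted p of 0.941 in edgeR), between -0.62 and -0.31 in the runs that left out 1 pool. An antisense gene shares 1.41% of its exon length, and the strand setting of the counting is not given in the sources used here.

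*Scn2a* (Nav1.2), of developing initial segments and unmyelinated axons, stood at 87.1, 68.8 and 41.7 CPM in double-labelled pools 1 to 3, against 66.7, 68.8 and 69.6 CPM in DiO-only pools 1 to 3. The double-labelled pools were spread around 3 nearly equal DiO-only pools (log2 fold change -0.06 ± 0.35, SE, with an adjusted p of 0.993 in edgeR). *Scn3a* (Nav1.3), an embryonic channel that rat sensory neurons make again after axotomy, stood at 28.4, 28.6 and 28.3 CPM in double-labelled pools 1 to 3, against 18.1, 28.7 and 47.6 CPM in DiO-only pools 1 to 3. Here it was the double-labelled pools that were nearly equal (log2 fold change -0.15 ± 0.44, SE, with an adjusted p of 0.987 in edgeR), and without DiO-only pool 3 the log2 fold change was 0.28. The peripheral channels *Scn10a* and *Scn11a* and the sodium sensor gene *Scn7a* had 0 counts in each double-labelled pool. In DiO-only pools 1, 2 and 3 *Scn7a* had 15, 1 and 1 counts, *Scn10a* 0, 0 and 7, and *Scn11a* 4, 0 and 6.

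*Scn1a*, *Scn2a*, *Scn3a* and *Scn9a* lie together on chromosome 2, where *Scn7a* also lies, and are close relatives, so part of each transcript is shared. Over whole transcripts, 5.41% of the 50-base windows of *Scn1a* occurred also in another sodium channel alpha transcript, as did 7.58% for *Scn2a*, 8.05% for *Scn3a*, 5.36% for *Scn9a* and 0.0527% for *Scn8a*. The counts of *Scn1a*, *Scn2a*, *Scn3a* and *Scn9a* are uncertain by the reads of such windows, whose treatment is not given in the sources used here.

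As shares of all sodium channel alpha transcripts per kilobase, *Scn1a* made up 47.8, 33.1 and 29.3% in double-labelled pools 1 to 3, against 28.6, 16.2 and 18.2% in DiO-only pools 1 to 3. The lowest double-labelled share lay just above the highest DiO-only share. The share of *Scn9a* was 16.9, 12.3 and 21.5% in double-labelled pools, against 24.5, 30.9 and 29.1% in DiO-only pools, without overlap. *Scn8a* held 38.0 ± 12.3% in double-labelled pools and 39.3 ± 3.05% in DiO-only pools (SD, n = 3). The ratio of *Scn1a* to *Scn9a* per kilobase was 2.83, 2.69 and 1.37 in double-labelled pools 1 to 3, against 1.17, 0.525 and 0.625 in DiO-only pools 1 to 3. Within each double-labelled pool *Scn1a* thus exceeded *Scn9a*, which in DiO-only pools held for pool 1 alone. This ratio was chosen after its values were seen and carries no test. Summed over the class, sodium channel alpha levels were 81.5, 104 and 83.0 CPM per kb in double-labelled pools, against 71.7, 78.3 and 66.9 CPM per kb in DiO-only pools.

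**Figure D3:**
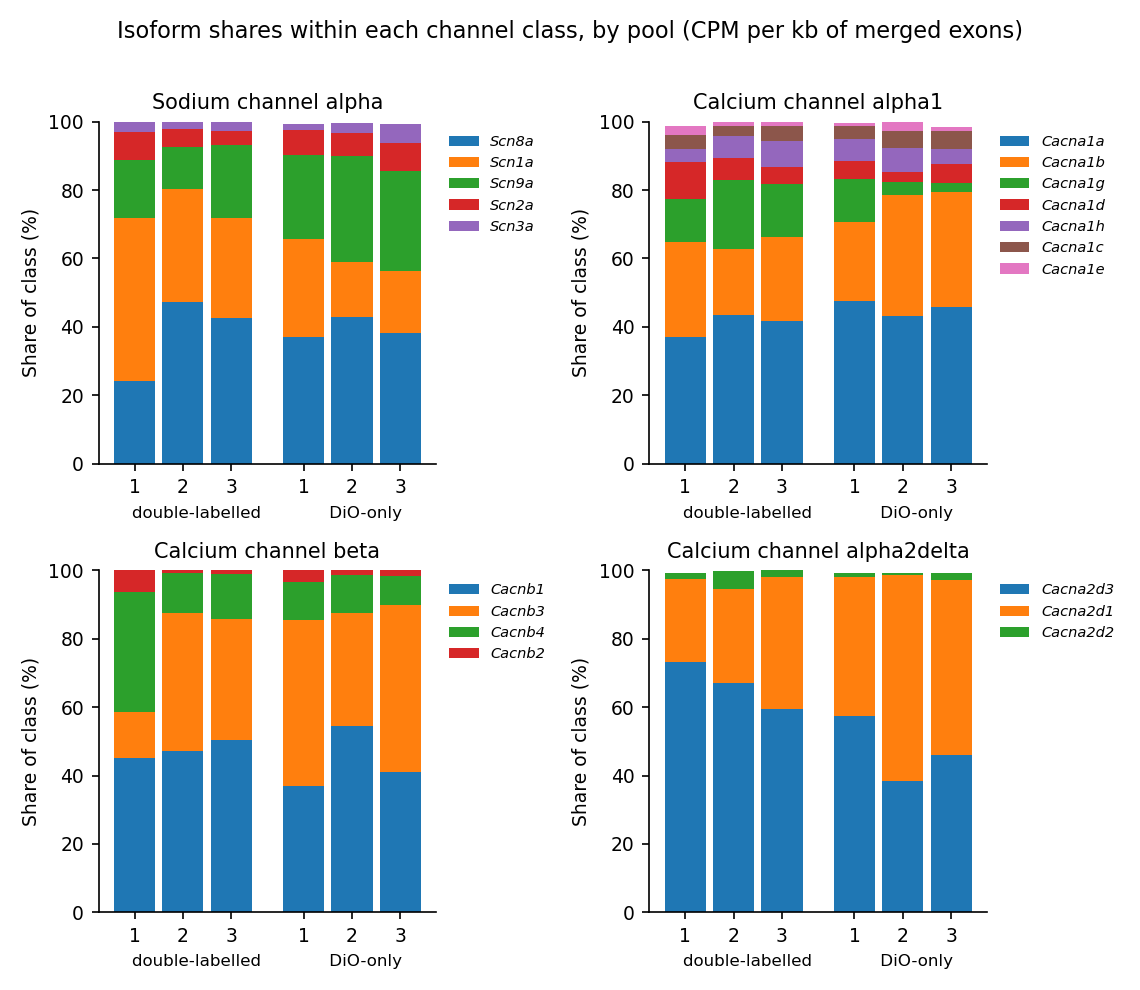
Share of each isoform (stacked bars, percent of CPM per kb of merged exons) within 4 channel classes in each pool, double-labelled pools at the left of each panel and DiO-only pools at the right; isoforms averaging under 1% are not drawn. The Scn1a share is 29.3% or more in double-labelled pools and 28.6% or less in DiO-only pools, and Cacna2d3 makes up 59.3% or more of its class in double-labelled pools and 57.5% or less in DiO-only pools.

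The sodium channel beta genes encode adhesion-type partners of the alpha subunits. *Scn4b*, whose tail gives rise to resurgent sodium current, stood at 114, 198 and 237 CPM in double-labelled pools, against 129, 100.2 and 184 CPM in DiO-only pools (log2 fold change 0.41 ± 0.37, SE, with an adjusted p of 0.970 in edgeR). *Scn2b* had 90 of its 162 counts in double-labelled pool 1, and its log2 fold change of 2.01 ± 1.22 (SE, with an adjusted p of 0.929 in edgeR) was 0.51 without that pool. *Scn3b* had 11 of its 12 counts in DiO-only pool 1.

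Among calcium channel pores, 2 presynaptic Cav2 genes, *Cacna1a* and *Cacna1b*, led, while the Cav2 gene *Cacna1e* had the lowest level per kilobase of the 7 tested. *Cacna1a* (Cav2.1), the channel of transmitter release at the mature neuromuscular junction, had the highest level of the class per kilobase, 15.6 ± 5.22 CPM per kb in double-labelled pools and 14.3 ± 1.52 in DiO-only pools (SD, n = 3). Its level was 111, 225 and 199 CPM in double-labelled pools 1 to 3, against 173, 143 and 174 CPM in DiO-only pools 1 to 3. As for *Scn8a*, double-labelled pool 1 lay below and the other two above the DiO-only pools (log2 fold change 0.13 ± 0.33, SE, with an adjusted p of 0.987 in edgeR). *Cacna1b* (Cav2.2), the N-type channel of many synapses and of the developing neuromuscular junction, averaged 87.8 ± 15.1 CPM in double-labelled pools and 95.0 ± 19.2 CPM in DiO-only pools (SD, n = 3), with a log2 fold change of -0.11 ± 0.32 (SE, with an adjusted p of 0.987 in edgeR). *Cacna1e* (Cav2.3), the R-type channel, stood at 17.3, 13.5 and 13.9 CPM in double-labelled pools, against 7.15, 17.7 and 11.0 CPM in DiO-only pools, with overlap. Together the Cav2 genes summed to 25.1 ± 6.27 CPM per kb in double-labelled pools and 24.3 ± 2.14 in DiO-only pools.

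The L-type genes open at strong depolarisation and close slowly. *Cacna1d* (Cav1.3), the channel behind the persistent inward current of motor neurons, stood at 36.8, 37.3 and 25.3 CPM in double-labelled pools 1 to 3, against 21.5, 10.4 and 24.2 CPM in DiO-only pools 1 to 3. The groups did not overlap, with a gap of about 1 CPM between double-labelled pool 3 and DiO-only pool 3. The log2 fold change was 0.82 ± 0.46 (SE, with an adjusted p of 0.899 in edgeR). *Cacna1d* shares 4.67% of its exon length with *Chdh* on the other strand. *Cacna1c* (Cav1.2), of cell bodies and dendrites, stood at 23.2, 28.2 and 39.5 CPM in double-labelled pools, against 24.7, 31.4 and 36.4 CPM in DiO-only pools, with a log2 fold change of -0.02 ± 0.40 (SE, with an adjusted p of 0.999 in edgeR) that was 0.02 with total-count scaling.

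The T-type genes open near rest and give low-threshold calcium spikes. *Cacna1g* (Cav3.1; ENSMUSG00000020866) lies on the minus strand of chromosome 11 (mm10, 94408391 to 94474198). It measured 33.3, 93.3 and 65.7 CPM in double-labelled pools 1 to 3, against 40.1, 11.7 and 8.76 CPM in DiO-only pools 1 to 3. DiO-only pool 1 lay above double-labelled pool 1, so that the groups overlapped, while DiO-only pools 2 and 3 lay below each double-labelled pool. The log2 fold change was 1.65 ± 0.60 (SE, with an adjusted p of 0.720 in edgeR, unadjusted p = 0.0183). It was 2.65 without DiO-only pool 1, and the unadjusted p exceeded 0.05 without DiO-only pool 2 (0.0629), DiO-only pool 3 (0.0655) or double-labelled pool 2 (0.0876). *Cacna1h* (Cav3.2) averaged 22.7 ± 11.8 CPM in double-labelled pools and 17.9 ± 3.57 CPM in DiO-only pools (SD, n = 3), with a log2 fold change of 0.35 ± 0.54 (SE, with an adjusted p of 0.980 in edgeR). The share of *Cacna1g* among all calcium channel alpha1 transcripts per kilobase was 12.4, 20.3 and 15.4% in double-labelled pools, against 12.4, 3.98 and 2.61% in DiO-only pools.

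The alpha2delta subunits, which bring calcium channels to the surface and include the gabapentin receptor encoded by *Cacna2d1*, showed opposite signs for the 2 abundant genes. *Cacna2d1* (ENSMUSG00000040118) lies on the plus strand of chromosome 5 (mm10, 15934691 to 16374511). It measured 79.3, 107 and 170 CPM in double-labelled pools 1 to 3, against 136, 322 and 209 CPM in DiO-only pools 1 to 3. Double-labelled pool 3 lay above DiO-only pool 1, and the other pools kept apart. The log2 fold change was -0.91 ± 0.40 (SE, with an adjusted p of 0.835 in edgeR, unadjusted p = 0.0445). It was -0.53 without DiO-only pool 2, and the unadjusted p was over 0.05 in 4 of the 6 runs that left out 1 pool and with total-count scaling (0.0817). *Cacna2d3* stood at 168, 182 and 183 CPM in double-labelled pools, against 136, 144 and 132 CPM in DiO-only pools. Its highest pool was 1.09 times its lowest in each group, and the groups did not overlap, yet the log2 fold change of 0.37 ± 0.28 (SE) had an edgeR adjusted p of 0.957.

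The ratio of *Cacna2d3* to *Cacna2d1* per kilobase was 3.01, 2.44 and 1.54 in double-labelled pools 1 to 3, against 1.42, 0.636 and 0.897 in DiO-only pools 1 to 3. As with the sodium channel ratio, DiO-only pool 1 came nearest to the double-labelled pools, and the ratio was chosen after its values were seen and carries no test. *Cacna2d2* had 18, 37 and 41 counts in double-labelled pools 1 to 3, against 16, 8 and 32 in DiO-only pools 1 to 3, and its CPM overlapped (log2 fold change 1.09 ± 0.94, SE). Double-labelled pool 2 stood at 13.5 CPM, against 3.70 and 5.49 CPM in double-labelled pools 1 and 3, and without it the log2 fold change was 0.38. *Cacna2d4* had 9, 1 and 1 counts in double-labelled pools 1 to 3, against 16, 8 and 14 in DiO-only pools 1 to 3 (edgeR adjusted p = 0.970). These counts are near the limit of detection, and only the DiO-only pools brought the gene past the filter on low counts.

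The windows at the starts of *Cacna2d1* (GRCm38.p6, chr5:15934441-15934740, plus strand) and of *Nalcn* (chr14:123627095-123627394, minus strand) are set side by side because the genes had opposite signs at an unadjusted p under 0.05. The same letters were searched, and matches, which may overlap each other, are in capitals.
Cacna2d1: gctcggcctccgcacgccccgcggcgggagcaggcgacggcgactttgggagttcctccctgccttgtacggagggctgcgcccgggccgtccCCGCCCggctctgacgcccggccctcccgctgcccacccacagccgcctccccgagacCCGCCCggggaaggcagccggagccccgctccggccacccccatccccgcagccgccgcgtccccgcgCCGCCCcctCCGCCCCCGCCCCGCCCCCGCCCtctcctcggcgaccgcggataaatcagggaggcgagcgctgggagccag
Nalcn: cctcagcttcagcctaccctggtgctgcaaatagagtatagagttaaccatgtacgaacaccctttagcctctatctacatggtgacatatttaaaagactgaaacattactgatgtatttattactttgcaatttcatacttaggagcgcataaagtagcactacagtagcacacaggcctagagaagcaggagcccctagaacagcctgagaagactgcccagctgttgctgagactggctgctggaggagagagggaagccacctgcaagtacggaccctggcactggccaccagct
The *Cacna2d1* window had a GC content of 80%, 42 CG pairs and 7 GC box matches. The *Nalcn* window had a GC content of 48.3%, 3 CG pairs and none of the 4 motifs, where the median window had 7 CG pairs. The *Scn1a* window had 5 CG pairs. CG pairs are given for these windows only, and *Cacna1g*, also higher at an unadjusted p under 0.05, is not among them. Whether CG pairs go with the direction of a difference was not tested.

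The calcium channel beta genes encode cytoplasmic subunits that chaperone the pore. *Cacnb1* averaged 10.8 ± 2.43 CPM per kb in double-labelled pools and 12.5 ± 3.06 in DiO-only pools (SD, n = 3). *Cacnb3* averaged 7.11 CPM per kb in double-labelled pools and 12.4 CPM per kb in DiO-only pools, where it was above *Cacnb1* in pools 1 and 3. With the longest transcript as length, *Cacnb3* made up 45.6% and *Cacnb1* 42.3% of the class in DiO-only pools. *Cacnb1* measured 37.0, 51.6 and 58.6 CPM in double-labelled pools 1 to 3, against 41.0, 66.8 and 62.6 CPM in DiO-only pools 1 to 3. The log2 fold change of *Cacnb1* was -0.21 ± 0.36 (SE, with an adjusted p of 0.987 in edgeR). *Cacnb3* stood at 9.86, 39.2 and 36.5 CPM in double-labelled pools, against 47.4, 36.1 and 66.0 CPM in DiO-only pools, with double-labelled pool 1 far below the others (log2 fold change -0.81 ± 0.51, SE, with an adjusted p of 0.936 in edgeR). *Cacnb4* showed the reverse in that pool, at 56.5 CPM against 24.9 and 30.3 CPM in double-labelled pools 2 and 3 and 24.2 to 26.4 CPM in DiO-only pools. Its log2 fold change was 0.55 ± 0.43 (SE, with an adjusted p of 0.957 in edgeR), and a noncoding gene on the other strand shares 16.0% of its exon length. *Cacnb2* averaged 7.27 ± 7.05 CPM in double-labelled pools and 8.11 ± 2.88 CPM in DiO-only pools (SD, n = 3).

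The HCN genes differ in speed and in their response to cyclic AMP. The cyclic AMP-sensitive *Hcn2* stood at 6.99, 6.59 and 54.0 CPM in double-labelled pools, against 10.9, 4.34 and 24.7 CPM in DiO-only pools. Pool 3 was high in each group, and without double-labelled pool 3 the log2 fold change of 0.76 ± 0.86 (SE, with an adjusted p of 0.976 in edgeR) turned to -0.98. *Hcn4*, the slow channel of cardiac pacemaker cells and some neurons, had 89, 14 and 0 counts in double-labelled pools 1 to 3, against 89, 11 and 95 in DiO-only pools 1 to 3. The count of 0 in double-labelled pool 3 allows up to 0.402 CPM at 3 counts, for counting error only. *Hcn3* averaged 7.16 ± 4.65 CPM in double-labelled pools and 11.2 ± 9.80 CPM in DiO-only pools (SD, n = 3). These 3 genes varied more between pools of a group than between the groups.

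*Nalcn*, of the sodium leak channel (ENSMUSG00000000197), lies on the minus strand of chromosome 14 (mm10, 123276634 to 123627144). It measured 59.4, 61.1 and 48.2 CPM in double-labelled pools 1 to 3, against 29.6, 29.4 and 15.6 CPM in DiO-only pools 1 to 3. The lowest double-labelled pool was well above the highest DiO-only pool. The means were 56.3 ± 6.99 CPM in double-labelled pools and 24.9 ± 8.01 CPM in DiO-only pools (SD, n = 3 each), a log2 fold change of 1.18 ± 0.39 (SE, with an adjusted p of 0.675 in edgeR, unadjusted p = 0.0116). The log2 fold change ran from 0.93 to 1.33 when 1 pool at a time was left out, and the unadjusted p exceeded 0.05 in 1 of these 6 runs, without DiO-only pool 3 (0.0607). The smallest adjusted p for *Nalcn* under any alternative was 0.305 and the largest 0.9998.

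The channel works as a complex, and 3 listed partners were found in the table by name. *Unc80*, the scaffold that links the channel to UNC79, stood at 151, 131 and 113 CPM in double-labelled pools 1 to 3, against 82.3, 73.8 and 71.7 CPM in DiO-only pools 1 to 3. The groups did not overlap (log2 fold change 0.79 ± 0.30, SE, with an adjusted p of 0.742 in edgeR, unadjusted p = 0.0226). *Unc79* stood at 23.8, 45.8 and 33.9 CPM in double-labelled pools, against 28.3, 23.7 and 27.7 CPM in DiO-only pools, with overlap (edgeR adjusted p = 0.974). *Fam155a*, the subunit that sits on the outer face of the channel, lay on the other side, at 61.9, 84.9 and 41.7 CPM in double-labelled pools, against 89.9, 101 and 102 CPM in DiO-only pools. Its groups did not overlap either (log2 fold change -0.64 ± 0.35, SE, with an adjusted p of 0.887 in edgeR).

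**Figure D4:**
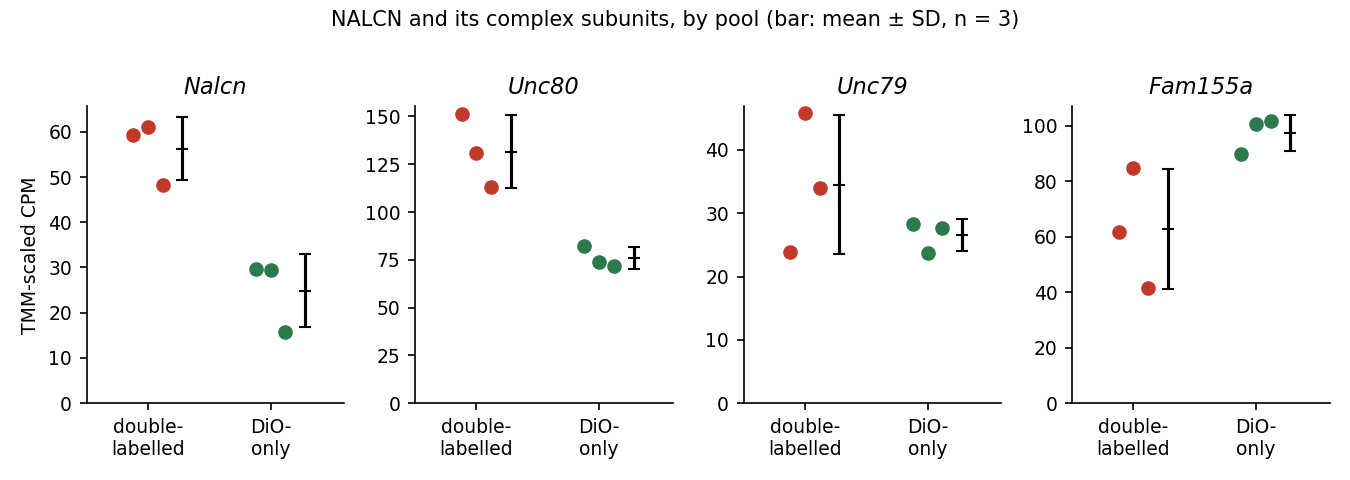
Level in TMM-scaled CPM of Nalcn and 3 subunits of its complex in each double-labelled pool (red, left) and DiO-only pool (green, right), with the mean and SD of each group. Nalcn and Unc80 are higher in each double-labelled pool than in any DiO-only pool, Unc79 overlaps, and Fam155a is lower.

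None of the partner genes listed for these channels passed in edgeR's test over all genes, with 0 called in each of the 6 partner lists. Of 10 tested anchors of sodium channels at initial segments and nodes, 7 were higher and 3 lower in double-labelled pools, with a median log2 fold change of 0.31. *Cntnap1*, of the junction next to the node, had the single unadjusted p under 0.05 (0.0288). It stood at 91.9, 97.4 and 135 CPM in double-labelled pools 1 to 3, against 51.6, 53.1 and 77.0 CPM in DiO-only pools 1 to 3, without overlap (edgeR adjusted p = 0.751). The anchors of highest level were *Sptan1* (spectrin), *Ank2* (an ankyrin) and *Ank3* (ankyrin-G, the organiser of the initial segment), with log2 fold changes of -0.07, 0.06 and -0.36. Of 11 tested intracellular partners of sodium channels, 4 were higher and 7 lower, with a median log2 fold change of -0.13 and none at an unadjusted p under 0.05. The abundant *Calm2* (calmodulin) and *S100a10* had log2 fold changes of 0.26 and -1.08, with overlapping groups.

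Of 23 listed partners and inhibitors of calcium channels 11 were tested, with 7 higher and 4 lower and a median log2 fold change of 0.55. *Stac*, whose protein binds L-type channels, had 0, 0 and 4 counts in double-labelled pools 1 to 3, against 80, 13 and 36 in DiO-only pools 1 to 3. Its groups did not overlap, and *Stac* had an edgeR adjusted p of 0.617 (unadjusted p = 0.00572). However, *Stac* passed the filter on low counts only through the DiO-only pools, where it was higher. Its lack of overlap and its p-value are limited by that choice. The abundant *Cacng2* and *Tspoap1* had log2 fold changes of 0.71 and 0.91, with overlapping groups. Of 6 tested HCN channel partners 4 were higher and 2 lower, with a median log2 fold change of 0.24. *Pex5l* (TRIP8b), which controls the trafficking of HCN channels, stood at 59.6, 59.7 and 66.9 CPM in double-labelled pools, against 39.0, 20.7 and 36.1 CPM in DiO-only pools, without overlap (log2 fold change 0.95 ± 0.37, SE, with an adjusted p of 0.742 in edgeR). The most abundant HCN partners *Vapa*, *Flna* and *Nedd4l* had log2 fold changes of -0.19, 0.32 and -0.28, with overlap. Of the 6 calcium release channel genes 4 were higher and 2 lower, with none at an unadjusted p under 0.05. The most abundant of them, *Itpr1*, *Ryr2* and *Itpr3*, had log2 fold changes of -0.30, 0.18 and 0.58, with overlap.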

How the data were processed

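Poly(A) RNA of 6 pools was amplified with the SMART-Seq HT kit, per the labels' protocols. The deposited values are raw read counts per gene, made by the authors with FastQC, HISAT2 and HTSeq on mm10, per the submitters' processing notes; versions, annotation, strand setting and the treatment of multimapping reads are, in the sources used here, not given. All 53858 gene IDs matched GENCODE M21, and 0 count columns lacked a sample. From the counts, edgeR 4.0.16 in R 4.3.3 was used (filterByExpr by group, TMM scaling, robust quasi-likelihood fit, two-sided test, Benjamini-Hochberg adjustment over all 12954 genes kept, threshold 0.05). The filter kept 99.2% of counts. Levels per kilobase divide CPM by merged exon length. Total counts of 2997714 to 6563403 put 3 counts at 0.402 to 1.10 TMM-scaled CPM; libraries without molecular identifiers make such floors cover counting error only.

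Alternatives were other scalings and filters, DESeq2 1.42.0, limma voom 3.58.1, the replicate number as a block, thinning and leaving out each pool. Each member is accounted for; full values are given for those with an unadjusted p under 0.05, with groups apart at a mean of at least 5 CPM or of highest level in a class, and other members' values are added for completeness. Partners named have an unadjusted p under 0.05 or are among the 3 of highest CPM in a list. Members and lists were chosen with earlier results of these data known. The fit was also run on simulated counts with known changes, but the share of changes it recovered is not given here. Spike-in reads named in the labels were not analysed here. Some members and partners, and a sequence, are not reported here.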

Additional observations from a re-analysis of the deposited data

How the results depend on the processing

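Over all genes edgeR's test called 0, whereas 79 were called with no filter on low counts, 75 by DESeq2 on all genes and 23 with the replicate number as a block; the cause was not tested. Channel subunits called stayed at 0 under each alternative run. Subunits at an unadjusted p under 0.05 numbered 4, and 1 to 4 when 1 pool at a time was left out. Same-numbered pools had correlations of deviations of 0.0742, 0.228 and 0.203, and 6 of 6 pools correlated best with their own number, a weak hint from the data and not from the design. The deviations were taken from the group means, so these matches are not independent of each other. The labels do not say that the numbers pair the pools. With the replicate block 12 genes were higher and 11 lower, and the smallest adjusted p among subunits was 0.135 (*Scn1a*).

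Of the 26 tested subunits reported 10 changed sign under at least 1 alternative. *Cacna1c* had a log2 fold change of -0.02, but 0.023 with total-count scaling and 0.011 after thinning. Leaving out 1 pool gave log2 fold changes from -0.080 to 0.38 for *Cacna1a*, -0.27 to 0.0097 for *Cacna1b*, -0.26 to 0.14 for *Cacna1c*, -1.33 to 0.20 for *Cacnb2*, -0.98 to 1.55 for *Hcn2*, -1.20 to 0.37 for *Hcn3*, -2.22 to 0.092 for *Hcn4*, -0.31 to 0.19 for *Scn2a*, -0.43 to 0.28 for *Scn3a* and -0.067 to 0.57 for *Scn8a*. Of the shares of a class, 6 of 24 values moved by more than 1 SD under other length definitions. With 3 pools a group, the common biological coefficient of variation was 0.587. How much of this spread came from differences between pools, from amplification or from depth was not tested.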
